A study of Mus musculus with 12 samples.

Results

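Described here are the 6 of 12 RNA sequencing libraries made from C18-4 cells that carried a control virus, 3 libraries labelled 3NC and 3 labelled 5NC. They were taken by their treatment label, and no change of the long noncoding RNA lncRNA8276 is labelled in either group. The study sequenced total RNA of C18-4 cells, a line of mouse spermatogonia immortalised with a viral large T antigen, which binds p53 and the retinoblastoma protein, after transfection with virus. The strain is given as IRC mouse, the tissue as C18-4 cells, and the treatment as 3NC or 5NC. What the names 3NC and 5NC mean is not given in the labels. The other 6 libraries are 3 labelled 8276KD (virus for inhibition of lncRNA8276) and 3 labelled 8276OV (virus for its overexpression). lncRNA8276 was not among the transcripts analysed here. Whether replicates of a group were grown as separate cultures is not labelled, so a p-value measures the spread between libraries only, and that spread may be technical.

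Cells in culture set their growth through ligands such as epidermal growth factor, whose receptors drive the ERK kinase cascade. That cascade induces ETS and AP-1 transcription factors and, further on, cyclin D1. Low oxygen stabilises hypoxia-inducible factor (HIF), which raises the glycolytic enzymes, glucose uptake and lactate export. Low membrane sterol releases the SREBP factors, which raise cholesterol synthesis and uptake. Matrix proteins and surface adhesion molecules are made in sets that differ between mesenchymal, mesothelial and epithelial cells. The comparison of 5NC with 3NC asks how far cells of 1 line under 2 control viruses, without an intended change of the lncRNA, differ in these programs.

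Levels are FPKM, fragments scaled by transcript length and library total, as the authors deposited them. The unit was read from the values, and TPM, a related unit, remains possible because no label gives it. The depth implied by the lowest values ran from 11.9 to 12.6 M fragments in the 6 control libraries. Only estimates within a preset range entered this median, which bounds it, so it is no measured depth. Between 11107 and 11165 genes reached a level of 1 in each. Pearson's r of log2(FPKM + 1) was 0.998 for each pair of 3NC libraries, 0.997 to 0.998 between 5NC libraries, and 0.974 to 0.976 between a 3NC and a 5NC library. All 9 pairs across the groups thus correlated less than any pair of replicates. Of 20 measured germ cell markers, 17 stayed below 1 in all 6 control libraries. The abundant one was Uchl1, a ubiquitin hydrolase of spermatogonia and neurons, with 73, 76.3 and 82.1 in 3NC and 93.1, 91.1 and 89.2 in 5NC (higher by 0.24, adjusted p = 0.00946 in limma). Sycp1, of the synaptonemal complex, was near 1 and lower by 0.31 (adjusted p = 0.0322 in limma). Its call was lost without the low-value filter, 3NC replicate 2 or 3, or 5NC replicate 1 or 2 (adjusted p = 0.0513 to 0.137). Id4 (1.21 to 1.82) was not called, and these 3 were the members above the filter. Gfra1, the co-receptor of GDNF on spermatogonial stem cells, reached 0.17 at most, and Zbtb16, a transcription factor of the same cells, 0.04. Endothelial and erythroid markers stayed below 1 in all 6 libraries, 6 of 6 and 3 of 3 measured. The macrophage list had 1 tested member, Cd68, with levels of 5.42, 4.11 and 5.61 in 3NC and 2, 2.24 and 2.29 in 5NC, while 5 of its 7 measured members stayed below 1.

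Of 11360 genes tested, 3477 (30.6%) were higher and 2937 (25.9%) lower in 5NC at a Benjamini-Hochberg adjusted p under 0.05 in limma, which is called a difference below. Together this is 56.5% of all genes tested, so that a called gene is the common case in this comparison. Differences are given on the scale of log2(FPKM + 1), 5NC minus 3NC, which understates those of low genes. The median over all genes was 0.02, and differences above 1 were found for 179 genes higher in 5NC and 122 lower there (2.65% of all tested). The 3 levels of 5NC all lay above the 3 of 3NC in 37.6% of genes and below them in 31.9%. In bulk libraries, fewer cells of a kind and less RNA per cell cannot be told apart.

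The largest difference in favour of 5NC was that of Igfbp2, a secreted binding protein of the insulin-like growth factors (gene 16008, chromosome 1, 72824480 to 72852474). Its level was 12.9, 10.9 and 9.34 in the 3NC libraries and 129.8, 138 and 136 in the 5NC libraries. The mean in 5NC was about 12.2-fold that in 3NC (log2 difference 3.50, SE 0.108, adjusted p = 2.08e-11). This gene and the others of this paragraph and the next were taken from called genes whose groups do not overlap. Their separation thus follows from that choice. Fgf21, a hormone of fasting and of the integrated stress response (gene 56636, chromosome 7, 45613890 to 45615490), had levels of 8.76, 9.5 and 8.98 in 3NC and 59.9, 62.1 and 63.5 in 5NC. The mean in 5NC was 6.81 times that in 3NC (log2 difference 2.64, SE 0.076, adjusted p = 1.23e-11). Gas1, a membrane protein first known from growth-arrested fibroblasts and a Hedgehog co-receptor, went from 2.09 ± 0.13 to 13.98 ± 0.807 (SD, n = 3; log2 difference 2.28, SE 0.0798, adjusted p = 6.96e-11). Npr3, the clearance receptor of natriuretic peptides, was near the filter in 3NC with 0.51, 0.53 and 0.67 and reached 5.47, 6.35 and 6.34 in 5NC. Pkhd1l1, a large membrane protein, stood at 0.67, 0.67 and 0.71 in 3NC and 5.99, 6.88 and 6.64 in 5NC.

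The largest difference in favour of 3NC was that of Fosl1, which encodes the AP-1 subunit Fra-1 (gene 14283, chromosome 19, 5447698 to 5455938). Its level was 31.2, 29.8 and 31.9 in 3NC and 1.61, 1.98 and 1.58 in 5NC. The mean was 17.97-fold lower in 5NC (log2 difference -3.56, SE 0.129, adjusted p = 8.67e-11). Etv4, an ETS factor of the PEA3 group (gene 18612, chromosome 11, 101769747 to 101785310), had levels of 32.1, 30.2 and 31.6 in 3NC and 3.4, 3.73 and 3.63 in 5NC, an 8.73-fold lower mean in 5NC (log2 difference -2.82, SE 0.064, adjusted p = 3.42e-12). The architectural chromatin protein genes Hmga1 and Hmga1b were lower as well, with means of 35.4 and 141 in 3NC against 6.61 and 26.8 in 5NC. These are near-identical copies, so their reads may have been split between them and the 2 differences count as 1. Sprr1a, a precursor of the cornified envelope, fell from 5.75, 4.78 and 4.11 in 3NC to 0.21, 0.19 and 0.1 in 5NC, where it was close to 0. Tnnt2, the cardiac troponin T gene, Prkg2, a cGMP-dependent kinase, and Tmem171, a membrane protein, had differences of -1.97, -1.95 and -2.12.

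**Figure D1:**
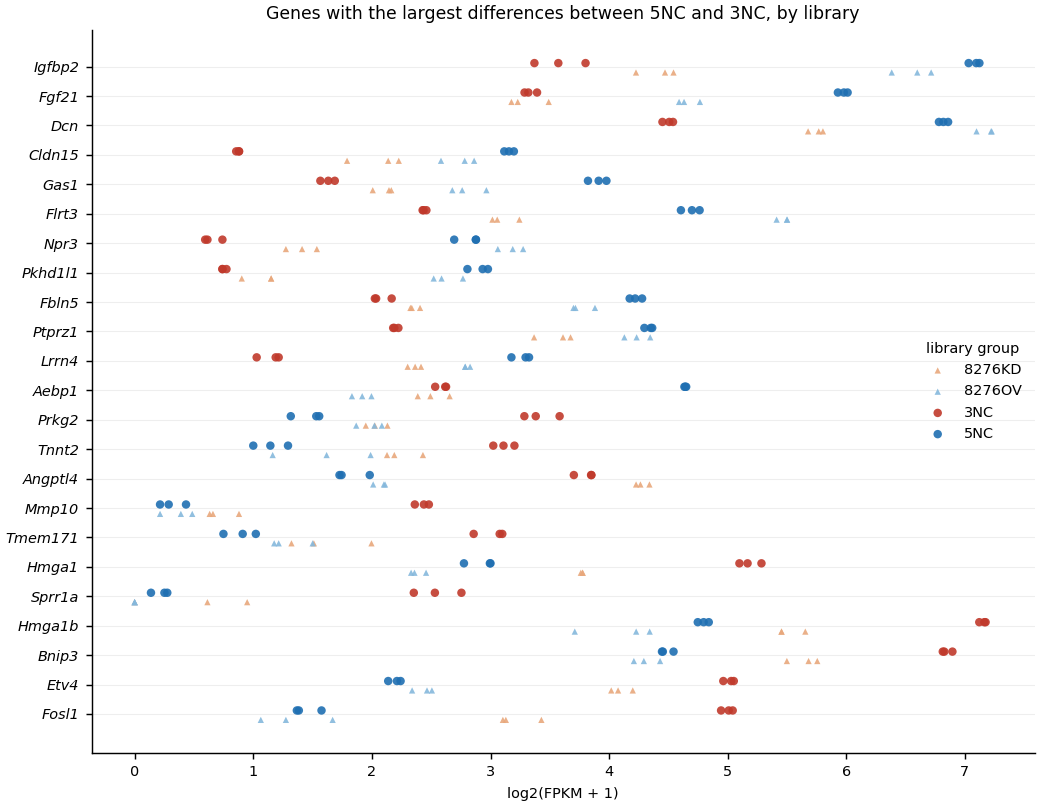
Level as log2(FPKM + 1) on the horizontal axis for genes with the largest differences in each direction between 5NC and 3NC, 1 point per library. Circles are the control libraries (3NC red, 5NC blue) and triangles the 8276KD and 8276OV libraries. The genes were taken from called genes whose groups do not overlap. The gap between the 3 circles of 5NC and the 3 of 3NC in each gene drawn thus follows from that choice. The replicates of a group lie close to each other.

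Genes were then read in lists by function, and the shares of called members were set against the shares over all tested genes. Glycolytic enzymes, other hypoxia-induced genes, NRF2 targets, cholesterol synthesis, the G2 and M phases and ERK-induced factors had more lower members than the background. Cadherins and immunoglobulin-type adhesion molecules, mesothelial markers, collagens, matricellular proteins and growth factor ligands had more higher members. The lists were chosen with earlier results of these data known, so these shares are a description.

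**Figure D2:**
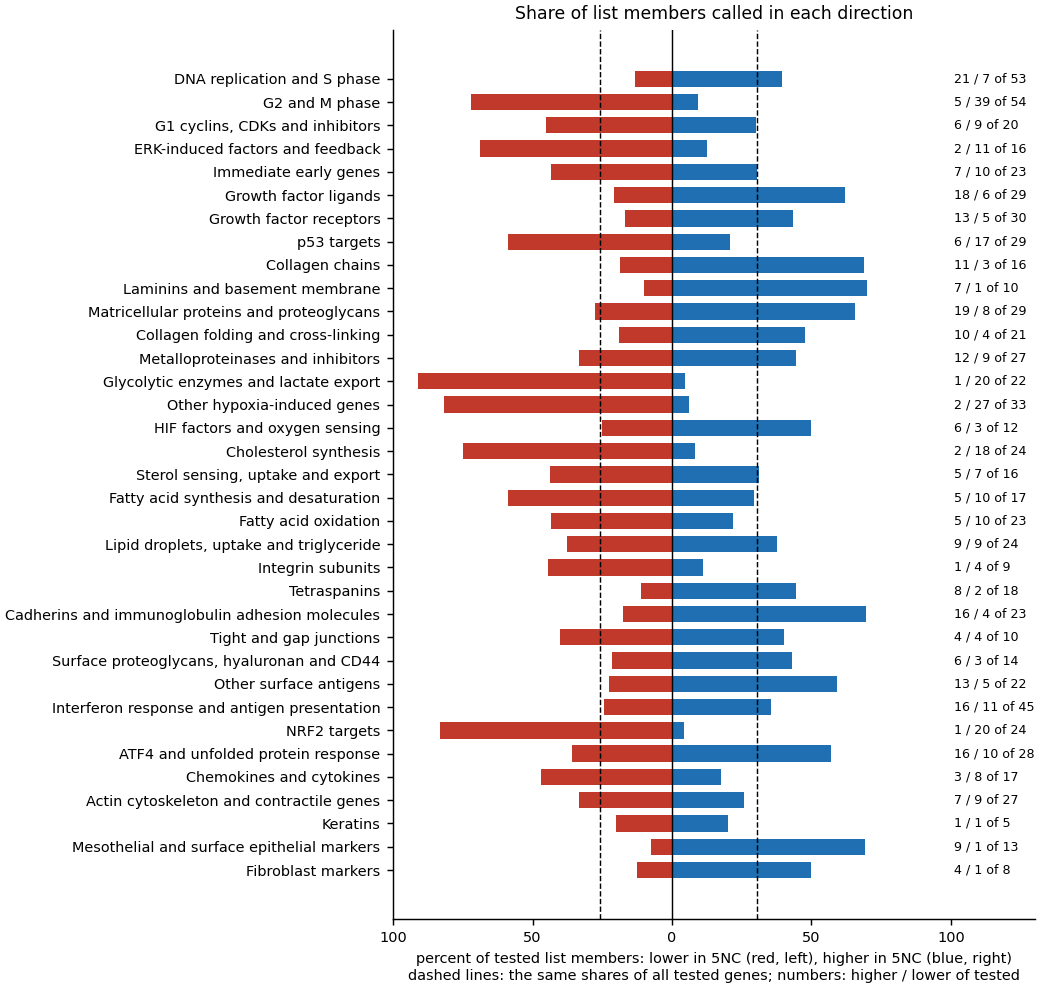
Percent of the tested members of each gene list that were called lower (red, to the left) or higher (blue, to the right) in 5NC, with the counts at the right as higher / lower of tested. Dashed lines mark the shares over all 11360 tested genes, 25.9% lower and 30.6% higher. The red bars of glycolysis (20 of 22) and NRF2 targets (20 of 24) and the blue bar of cadherins (16 of 23) lie far beyond them.

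Transcripts downstream of ERK were lower in 5NC. Of 16 tested members of a list of ERK-induced factors and feedback genes, 11 (68.8%) were lower and 2 higher, with a median of -0.77 against 0.02 over all genes. Beside Fosl1 and Etv4, the ETS factor Etv5 had levels of 7.82, 7.89 and 7.72 in 3NC and 2.7, 3.52 and 3.07 in 5NC (log2 difference -1.11, SE 0.0893, adjusted p = 2.34e-07). Phlda1, an immediate target of growth factors, went from 29.9 ± 0.87 to 11.8 ± 0.291 (log2 difference -1.27, SE 0.0728, adjusted p = 7.60e-09). Dusp6, the phosphatase that switches ERK off, had 17.3, 17.6 and 16.8 in 3NC and 8.81, 8.79 and 8.57 in 5NC, which is lower by 0.91. The groups did not overlap for any of these 3 genes. The members that went the other way were Spry1, a feedback inhibitor of receptor tyrosine kinases, higher by 0.81, and Myc, the growth-promoting transcription factor, with 22.3, 23.9 and 23.9 in 3NC and 35.01, 34.4 and 33.1 in 5NC (log2 difference 0.53, SE 0.0649, adjusted p = 1.23e-05). Myc and Fosl1, both known targets of ERK signalling, thus stood in opposite order in the same libraries.

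The ligands of the epidermal growth factor receptor were among the lower genes. Areg (amphiregulin) had levels of 4.55, 5.03 and 4.56 in 3NC and 0.9, 0.4 and 0.59 in 5NC (log2 difference -1.82, SE 0.124, adjusted p = 4.15e-08). Ereg (epiregulin) had 5.58, 5.67 and 4.95 and 1.38, 1.45 and 1.11 (log2 difference -1.47, SE 0.0985, adjusted p = 3.69e-08). Hbegf, the heparin-binding ligand, had 21.7, 21.8 and 23.2 and 10.2, 10.4 and 9.86 (log2 difference -1.06, SE 0.0577, adjusted p = 4.59e-09). Every 3NC library was above every 5NC library for all 3 ligands. The receptor Egfr was not called, with levels of 8.04, 9.76 and 8.26 in 3NC and 7.3, 8.39 and 8.04 in 5NC that overlapped (log2 difference -0.12, SE 0.0909, adjusted p = 0.286).

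Most other growth factor ligands were higher in 5NC. Of 29 tested ligands, 18 (62.1%) were higher and 6 lower (median 0.51). Differences above 1 were found for 5 of the higher and 3 of the lower ones. The Wnt ligand Wnt5a had levels of 2.38, 2.26 and 2.46 in 3NC and 7.02, 6.25 and 6.31 in 5NC (log2 difference 1.16, SE 0.078, adjusted p = 3.74e-08). Fgf5, a fibroblast growth factor, had 1.95, 2.2 and 2.21 and 5.75, 6.3 and 5.43, a difference of 1.13. Csf1, the growth factor of macrophages, went from 56.04 ± 1.49 to 117 ± 2.38 (log2 difference 1.05, SE 0.0508, adjusted p = 1.46e-09). The 3 ligands more than 1 lower were the EGF-type ligands above. Among 30 receptors, 13 were higher and 5 lower (median 0.13), led by Tgfbr2 (0.56) and Ddr1, a collagen receptor (0.54), while Lifr, Pdgfra and Tgfbr3 were lower by 0.32, 0.31 and 0.31. Of 4 tested binding proteins of insulin-like growth factors, Igfbp2 and Igfbp4 were higher and none was lower; Igfbp4 had 8.77, 9.14 and 9.6 in 3NC and 28.03, 25.6 and 26.1 in 5NC (log2 difference 1.44, SE 0.0833, adjusted p = 8.41e-09).

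Mitotic genes, listed for the G2 and M phases, were lower in 5NC by a small amount each. Of 54 tested, 39 (72.2%) were lower and 5 higher, with a median of -0.29 and no member beyond 1 in either direction. The higher members numbered 3 without 3NC replicate 2, 5NC replicate 1 or 5NC replicate 2. The mitotic kinase genes Aurka and Aurkb went from 91.1 ± 1.72 to 52.8 ± 1.68 and from 81.1 ± 1.204 to 49.6 ± 0.369 (-0.78 and -0.70). Mki67, the proliferation marker, had levels of 46.9, 50.4 and 47.3 in 3NC and 37.4, 38.7 and 39.8 in 5NC (log2 difference -0.31, SE 0.0609, adjusted p = 6.72e-04). Ndc80, a kinetochore protein, was higher instead, with 30.1, 27.4 and 26.1 against 47.2, 44.1 and 43.3 (0.67), and so was Hmgb2, a chromatin protein (0.37). The list of DNA replication and the S phase did not share the direction: 21 of 53 members were higher (39.6%), 7 were lower, and the median was 0.08. After GC correction 21 were higher and 15 lower. Ung, which removes uracil from DNA, was higher by 0.64, and Tk1, thymidine kinase, lower by 0.44.

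Regulators of the G1 phase were split. Cyclin D1 (Ccnd1), which drives CDK4 and CDK6, had levels of 48.8, 50.1 and 49.5 in 3NC and 28.4, 28.2 and 29.6 in 5NC (log2 difference -0.77, SE 0.0446, adjusted p = 8.92e-09). Its partner Cdk4 had 156, 155 and 159 and 284, 271 and 271 (log2 difference 0.81, SE 0.0516, adjusted p = 2.21e-08). The CDK inhibitor p21 (Cdkn1a) had 71.7, 69.7 and 71.7 and 22.3, 19.9 and 20.9 (log2 difference -1.71, SE 0.083, adjusted p = 1.53e-09). The 5NC libraries thus held less cyclin D1 and p21 transcript and more Cdk4 transcript, with no overlap for any of the 3. The inhibitors Cdkn1c (p57) and Cdkn2c (p18) were higher by 0.85 and 0.65, while Cdkn2d (p19) was lower by 0.49. In all, 6 of 20 members were higher and 9 lower. Targets of p53, the stress-activated tumour suppressor, were lower in 17 and higher in 6 of 29 cases, with a median of -0.25. Next to Cdkn1a, the cyclin G1 gene Ccng1 went from 52.8 ± 0.756 to 33.1 ± 0.85 (-0.66), and Btg2, an antiproliferative gene, was lower by 0.89. Gdf15, a stress cytokine, and Sesn2, an inhibitor of mTORC1, were higher by 0.99 and 0.91.

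Immediate early genes, which are induced within minutes of a stimulus, were lower in 10 and higher in 7 of 23 cases. Nr4a1, an orphan nuclear receptor, had levels of 9.15, 8.68 and 8.73 in 3NC and 3.48, 3.87 and 3.61 in 5NC (log2 difference -1.08, SE 0.0912, adjusted p = 3.47e-07). Klf4, a zinc finger factor of epithelia and of pluripotent cells, had 2.93, 2.35 and 2.52 and 9.73, 10.4 and 9.65, the largest difference of the list in the other direction (log2 difference 1.60, SE 0.0679, adjusted p = 4.26e-10).

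Hypoxia-induced genes were lower in 5NC across most of their known targets. Of 22 tested genes of glycolysis and lactate export, 20 (90.9%) were lower and 1 higher, with a median of -0.74. Of 33 other hypoxia-induced genes, 27 (81.8%) were lower and 2 higher, with a median of -0.61. The background share of lower genes was 25.9%. Both lists kept these counts after correction for the GC content of transcripts. Bnip3, a mitochondrial receptor for mitophagy (gene 12176, chromosome 7, 138890836 to 138909506), had levels of 112, 118 and 111 in 3NC and 20.9, 22.3 and 20.8 in 5NC. The mean in 5NC was 5.34-fold lower (log2 difference -2.36, SE 0.069, adjusted p = 1.30e-11).

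HIF binds DNA at a core that includes ACGTG, and this string was searched on both strands (CACGT on the other) in RefSeq promoter windows of 300 bases around each start site (GRCm38.p6). A window was found for 9139 of the tested genes, and 29.9% of them held the string, as did 31.6% of genes called lower and 31.4% of genes called higher. It stood in 18 of 24 windowed genes of the other hypoxia list (75.0%) and in 14 of 22 of the glycolysis list (63.6%). The 4 promoters below belong to the most reduced members with the string and show where it stands, in capitals. Bnip3 lies on the minus strand at chr7:138909457-138909756, Selenbp1 on the plus strand at chr3:94932833-94933132, Slc16a3 on the plus strand at chr11:120948817-120949116 and Slc2a1 on the plus strand at chr4:119108495-119108794.
Bnip3: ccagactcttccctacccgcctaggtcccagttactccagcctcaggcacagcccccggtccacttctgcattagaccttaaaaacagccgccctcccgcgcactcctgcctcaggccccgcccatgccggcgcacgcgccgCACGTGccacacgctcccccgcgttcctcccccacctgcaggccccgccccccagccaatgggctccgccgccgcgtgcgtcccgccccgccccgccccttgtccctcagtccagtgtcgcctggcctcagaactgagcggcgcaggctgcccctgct
Selenbp1: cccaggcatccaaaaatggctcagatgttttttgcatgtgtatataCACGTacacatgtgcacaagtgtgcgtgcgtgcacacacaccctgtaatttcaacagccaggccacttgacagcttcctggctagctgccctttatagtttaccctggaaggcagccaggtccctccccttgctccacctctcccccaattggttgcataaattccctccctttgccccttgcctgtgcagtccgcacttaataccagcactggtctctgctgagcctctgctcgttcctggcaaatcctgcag
Slc16a3: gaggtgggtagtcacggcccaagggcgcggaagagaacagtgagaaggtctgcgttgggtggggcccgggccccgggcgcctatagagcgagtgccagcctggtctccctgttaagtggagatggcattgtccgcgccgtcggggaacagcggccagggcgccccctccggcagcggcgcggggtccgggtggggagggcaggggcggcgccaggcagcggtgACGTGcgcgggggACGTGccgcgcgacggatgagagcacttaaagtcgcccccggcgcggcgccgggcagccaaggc
Slc2a1: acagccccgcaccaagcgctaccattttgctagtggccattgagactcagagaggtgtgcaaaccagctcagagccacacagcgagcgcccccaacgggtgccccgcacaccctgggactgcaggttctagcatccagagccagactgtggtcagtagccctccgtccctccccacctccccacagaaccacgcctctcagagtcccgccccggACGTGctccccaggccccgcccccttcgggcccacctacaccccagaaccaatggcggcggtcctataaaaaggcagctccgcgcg
In Bnip3 the 2 matches are the 2 strands of a single palindromic CACGTG, and Slc16a3 holds 2 separate matches. A match describes these letters and is not evidence of binding.

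The transporters at both ends of glycolysis were the most reduced members of that list. Slc16a3, which exports lactate (MCT4), had levels of 139, 139.6 and 139.6 in 3NC and 42.1, 40.9 and 39.97 in 5NC (log2 difference -1.74, SE 0.0935, adjusted p = 4.08e-09). Slc2a1, the glucose carrier GLUT1, had 53.5, 51.7 and 52.9 and 16.7, 16.4 and 18.2 (log2 difference -1.57, SE 0.0669, adjusted p = 4.36e-10). Every 3NC library lay more than 2 times above every 5NC library for both. Lactate dehydrogenase A (Ldha), an abundant transcript, went from 987, 959 and 987 in 3NC to 391.8, 409 and 414 in 5NC (log2 difference -1.27, SE 0.0371, adjusted p = 1.30e-11). The aldolase gene Aldoc was lower by 1.40, hexokinase 2 (Hk2) by 0.81, and Pdk1, which keeps pyruvate out of the mitochondria, by 0.59. The higher member was Slc16a1 (MCT1), which carries lactate in either direction, with a difference of 0.25.

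Among the other hypoxia-induced genes most were lower. Selenbp1, a selenium-binding methanethiol oxidase, went from 19.5 ± 1.09 to 5 ± 0.286 (-1.77), and its reads may be shared with its close copy Selenbp2. Angptl4, a secreted inhibitor of lipoprotein lipase, had levels of 13.4, 12.02 and 13.4 in 3NC and 2.31, 2.35 and 2.95 in 5NC (log2 difference -1.98, SE 0.0749, adjusted p = 1.33e-10). The oxygen sensor Egln3, itself a HIF target, had 35.3, 33.7 and 33.1 and 9.86, 9.67 and 8.41 (log2 difference -1.77, SE 0.0652, adjusted p = 1.06e-10), and the sensor Egln1 was lower by 0.61. Vegfa, the angiogenic factor and a standard HIF target, was not called: its levels of 50.6, 50.6 and 52.6 in 3NC and 57.6, 50.1 and 52.99 in 5NC overlapped (log2 difference 0.06, SE 0.0627, adjusted p = 0.432). Stc2, a secreted glycoprotein, and Lox, which cross-links collagen, were higher by 1.57 and 0.54. The transcript of HIF itself, Hif1a, was higher in 5NC, with 50.3, 52.7 and 51.8 against 74.8, 72.95 and 70.4 (log2 difference 0.49, SE 0.0672, adjusted p = 3.67e-05). Its levels were thus ordered opposite to those of most target genes. Epas1, which encodes HIF-2 alpha, overlapped between the groups (-0.07, adjusted p = 0.332), and Arnt2, a dimer partner, was higher by 1.04.

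**Figure D3:**
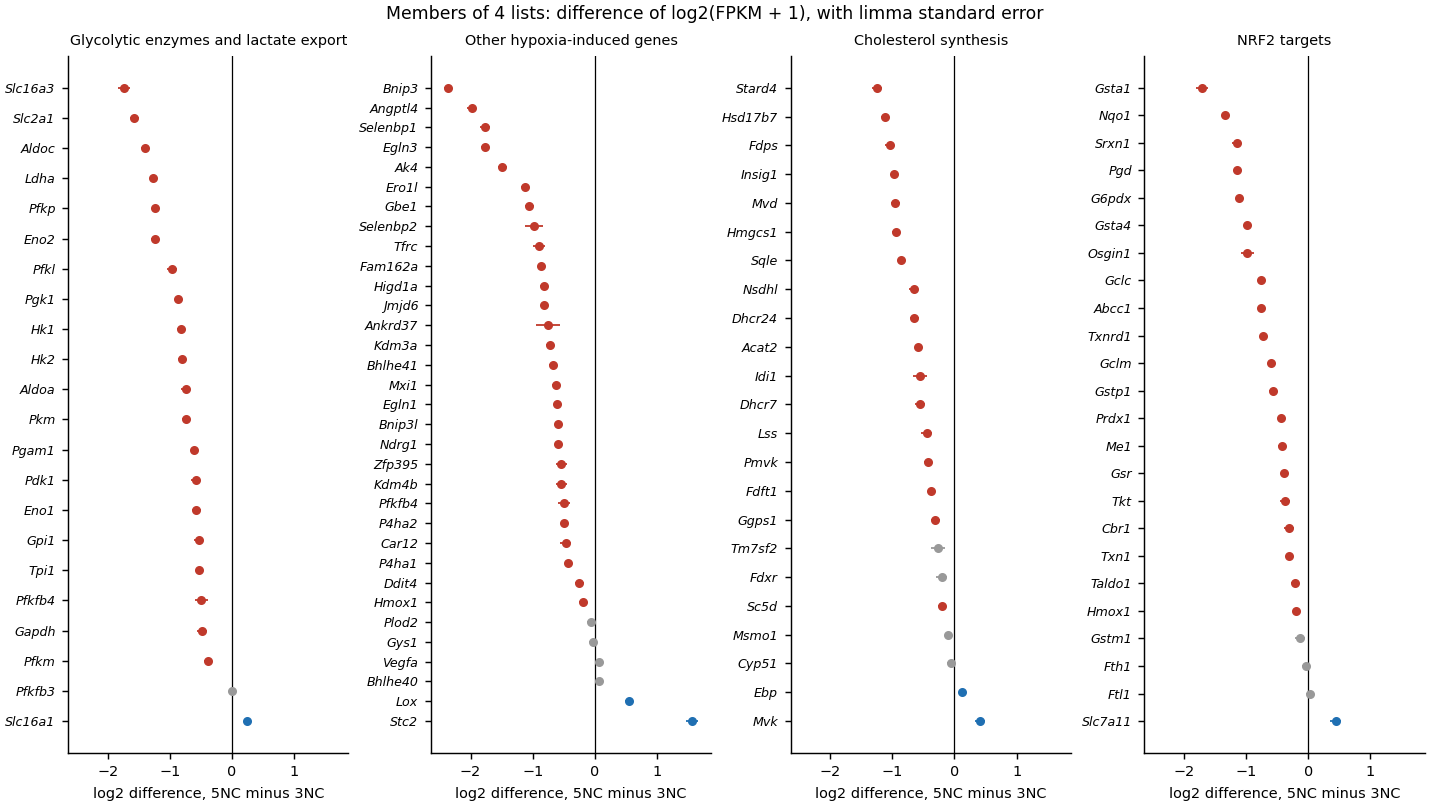
Difference of log2(FPKM + 1), 5NC minus 3NC, with limma standard errors, for tested members of the lists of glycolysis, other hypoxia-induced genes, cholesterol synthesis and NRF2 targets. Red points were called lower in 5NC, blue points higher, and grey points were not called. Most points are red, with Slc16a1, Stc2, Lox, Mvk, Ebp and Slc7a11 as the called exceptions.

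Cholesterol synthesis was lower in 5NC. Of 24 tested genes of the pathway and its regulation, 18 (75.0%) were lower and 2 higher (median -0.52). Fdps, the farnesyl diphosphate synthase, had levels of 71.02, 71.2 and 67.6 in 3NC and 37.1, 32.1 and 31.3 in 5NC, with no overlap (log2 difference -1.04, SE 0.0721, adjusted p = 5.00e-08). Hsd17b7, which acts on the way from lanosterol to cholesterol, went from 9.69 ± 0.121 to 3.93 ± 0.21 (-1.12), and Stard4, a sterol carrier, from 20.9 ± 0.96 to 8.24 ± 0.516 (-1.25). Sqle (squalene epoxidase) was lower by 0.86 and Insig1, the SREBP anchor and itself a target, by 0.97. The mevalonate kinase gene Mvk was higher by 0.41. The call of Ebp, the other higher member (log2 difference 0.12, SE 0.0491, adjusted p = 0.0489), was lost under 11 of the alternatives tried, 5 of them the omission of a library (3NC replicate 1 or 2 or any 5NC replicate; adjusted p = 0.0735 to 0.183). Srebf2, the SREBP gene of this pathway, was lower by 0.47, while Nr1h3, the oxysterol receptor LXR alpha, was low in both groups and higher in 5NC (0.67, 0.92 and 0.94 against 2.36, 2.17 and 2.29).

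The sterol regulatory element was searched as TCACNCCAC on both strands (GTGGNGTGA on the other). It stood in 1.30% of the 9139 windowed genes and in 1 of 18 windowed genes of cholesterol synthesis (5.56%), Hmgcs1, an early enzyme of the mevalonate pathway. Hmgcs1 had levels of 107, 105 and 103 in 3NC and 52.8, 55.3 and 53.7 in 5NC (log2 difference -0.95, SE 0.0623, adjusted p = 3.08e-08). Its promoter, on the plus strand at chr13:119690101-119690400, is shown with the match in capitals.
Hmgcs1: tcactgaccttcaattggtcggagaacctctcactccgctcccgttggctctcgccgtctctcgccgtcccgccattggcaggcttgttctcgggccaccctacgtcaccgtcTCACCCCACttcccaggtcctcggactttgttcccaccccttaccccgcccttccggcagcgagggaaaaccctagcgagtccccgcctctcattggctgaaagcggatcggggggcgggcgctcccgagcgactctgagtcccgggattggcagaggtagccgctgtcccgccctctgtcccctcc
This strict string leaves out the many looser forms of the element, and its absence from the other windows says only that these letters are not in them.

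Of 17 tested genes of fatty acid synthesis and desaturation, 10 were lower (58.8%) and 5 higher, with a median of -0.20. The stearoyl-CoA desaturase gene Scd1 had levels of 36.2, 37.1 and 37.2 in 3NC and 10.8, 10.7 and 10.5 in 5NC (log2 difference -1.70, SE 0.0531, adjusted p = 2.32e-11), and Scd2 went from 128 ± 3.75 to 59.3 ± 0.327 (-1.09). Elovl6, which lengthens palmitate, and Fasn, the fatty acid synthase, were lower by 0.85 and 0.72. The desaturase family member Fads3 and the elongases Elovl7 and Elovl4 were higher by 0.65, 0.57 and 0.32. Genes of fatty acid oxidation were lower in 10 and higher in 5 of 23 cases, none beyond 1. Cpt1a, which admits fatty acids to mitochondria, was lower by 0.39.

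Genes of lipid droplets and triglyceride were balanced, with 9 of 24 higher and 9 lower. Hilpda, a hypoxia-induced droplet protein that inhibits lipolysis, had levels of 51.3, 46.97 and 54.1 in 3NC and 16.1, 16.8 and 14.1 in 5NC (log2 difference -1.64, SE 0.0666, adjusted p = 2.80e-10). Fabp4, the adipocyte fatty acid carrier, had 3.8, 4.3 and 3.54 and 0.69, 0.5 and 0.25 (log2 difference -1.73, SE 0.224, adjusted p = 2.11e-05), and Plin2, the droplet coat protein, was lower by 0.65. Lipoprotein lipase (Lpl), which Angptl4 inhibits, was higher instead, with 123, 121 and 119 against 186, 193 and 189 (log2 difference 0.64, SE 0.051, adjusted p = 2.04e-07). The enzyme of triglyceride uptake and its inhibitor thus stood in opposite order in these libraries. Pparg, the adipogenic receptor, was low in both groups (0.5 and 1.197) and higher in 5NC by 0.56.

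Targets of NRF2, the factor of the antioxidant response, were lower in 20 of 24 cases (83.3%) and higher in 1, with a median of -0.50. Nqo1, a quinone reductase, had levels of 22.3, 23.04 and 24.1 in 3NC and 8.36, 8.76 and 8.4 in 5NC (log2 difference -1.34, SE 0.0524, adjusted p = 1.88e-10). The glutathione transferase Gsta1 had 63.5, 64.96 and 67.9 and 20.2, 17.1 and 20.8 (log2 difference -1.71, SE 0.0927, adjusted p = 4.43e-09), and Gsta4, far more abundant, had 708, 701 and 683 and 335, 355 and 361 (-0.99). Reads of Gsta genes can be shared within their family. Srxn1, which repairs peroxiredoxins, was lower by 1.15. The member that was higher, the cystine carrier Slc7a11 (0.44), is also a target of the stress factor ATF4.

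In the list of ATF4 targets and the unfolded protein response, 16 of 28 members (57.1%) were higher, 10 were lower, and the median was 0.33. Beside Fgf21, Chac1, a glutathione-degrading enzyme, had levels of 38.5, 40.2 and 43.1 in 3NC and 114, 121 and 117 in 5NC (log2 difference 1.504, SE 0.104, adjusted p = 5.26e-08). Slc7a5, a carrier of large amino acids, went from 76.2 ± 0.62 to 151 ± 2.38 (0.97), and Atf3 was higher by 0.80. The lower members with the largest differences were chaperones or chaperone-like proteins of the endoplasmic reticulum. Hspa5 (BiP), the main chaperone there, had 1002, 1034 and 996 and 499, 523 and 503 (log2 difference -0.99, SE 0.0408, adjusted p = 3.23e-10), and Manf and Creld2 were lower by 0.96 and 0.62.

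The 5NC libraries held more transcript of fibrillar and beaded-filament collagens of the extracellular matrix. Of 33 collagen chains, 32 were measured and 16 passed the filter, of which 11 (68.8%) were higher and 3 lower (median 0.60). Col3a1, a fibrillar chain (gene 12825, chromosome 1, 45311538 to 45349706), had levels of 36.8, 36.2 and 35.03 in 3NC and 116, 117 and 119.6 in 5NC (log2 difference 1.68, SE 0.0446, adjusted p = 7.35e-12). The beaded-filament chains Col6a1 and Col6a2 had 47.1, 45.6 and 45.3 and 28.7, 30.4 and 32.2 in 3NC against 122, 122 and 125.4 and 89.2, 89.03 and 90.6 in 5NC (1.40 and 1.53). All 3 chains stood apart between the groups. Col1a1 was higher by 0.57. The basement membrane chains Col4a1 and Col4a2 were lower by 0.35 and 0.35, and Col8a1 by 0.62. Laminins and other basement membrane proteins were higher in 7 of 10 cases and lower in 1 (median 0.20), but only 4 were called higher without 3NC replicate 1, without 5NC replicate 3 or with quantile normalization. Lamb2 went from 27.5 ± 0.921 to 44.8 ± 2.53 and Nid2 (nidogen 2) from 24.8 ± 0.254 to 39.9 ± 0.765.

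Matricellular proteins and proteoglycans were higher in 19 of 29 tested cases (65.5%) and lower in 8. The median was 0.61, and 10 members were more than 1 higher and 2 more than 1 lower. Decorin (Dcn), a collagen-binding proteoglycan (gene 13179, chromosome 10, 97479500 to 97518163), had levels of 21.7, 22.2 and 20.9 in 3NC and 112, 115 and 109 in 5NC, a 5.18-fold higher mean (log2 difference 2.32, SE 0.0496, adjusted p = 2.98e-12). Fbln5, which builds elastic fibres, had 3.49, 3.1 and 3.07 and 17.6, 17.04 and 18.4 (log2 difference 2.15, SE 0.0653, adjusted p = 1.97e-11). Aebp1, a collagen-binding matrix protein, had 5.14, 4.79 and 5.17 and 23.8, 24.1 and 23.97 (log2 difference 2.05, SE 0.0711, adjusted p = 6.25e-11). Sparc, one of the most abundant matrix transcripts here, went from 641 ± 5.85 to 1258 ± 55.8 (0.97). Osteopontin (Spp1), a secreted ligand of integrins and CD44, was lower, with 187, 185 and 172 against 48.1, 51.3 and 51.8 (log2 difference -1.83, SE 0.0489, adjusted p = 7.35e-12). Ltbp1, which anchors latent TGF-beta, had 4.13, 4.16 and 4.06 and 0.53, 0.81 and 0.66 (log2 difference -1.62, SE 0.0791, adjusted p = 1.54e-09), and Vcan (versican) was lower by 0.84. Fibronectin (Fn1) overlapped between the groups (-0.10, adjusted p = 0.214; -0.15 and 0.0331 after GC correction).

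Matrix proteases and their inhibitors did not share a direction: 12 of 27 were higher and 9 lower. Timp3, an inhibitor of metalloproteinases that binds the matrix, had levels of 33.7, 32.9 and 30.9 in 3NC and 121, 127 and 126 in 5NC (log2 difference 1.91, SE 0.0482, adjusted p = 7.07e-12), whereas Timp1 was lower by 0.54. Adamts5, which cleaves aggrecan, had 4.92, 5.03 and 4.55 and 16.7, 17.6 and 16.8 (log2 difference 1.63, SE 0.0578, adjusted p = 7.66e-11). The stromelysin Mmp10 had 4.58, 4.42 and 4.14 and 0.22, 0.35 and 0.16, near 0 in 5NC (log2 difference -2.12, SE 0.0961, adjusted p = 8.74e-10). Of 21 genes of collagen folding and cross-linking, 10 were higher and 4 lower. The lysyl oxidase Loxl1 was higher by 1.46 and the transglutaminase Tgm2 by 0.94, and the hypoxia-induced prolyl hydroxylases P4ha1 and P4ha2 were lower by 0.43 and 0.49. P4hb was lower by 0.17 (adjusted p = 0.00101), a call lost with quantile normalization (0.017, adjusted p = 0.705).

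**Figure D4:**
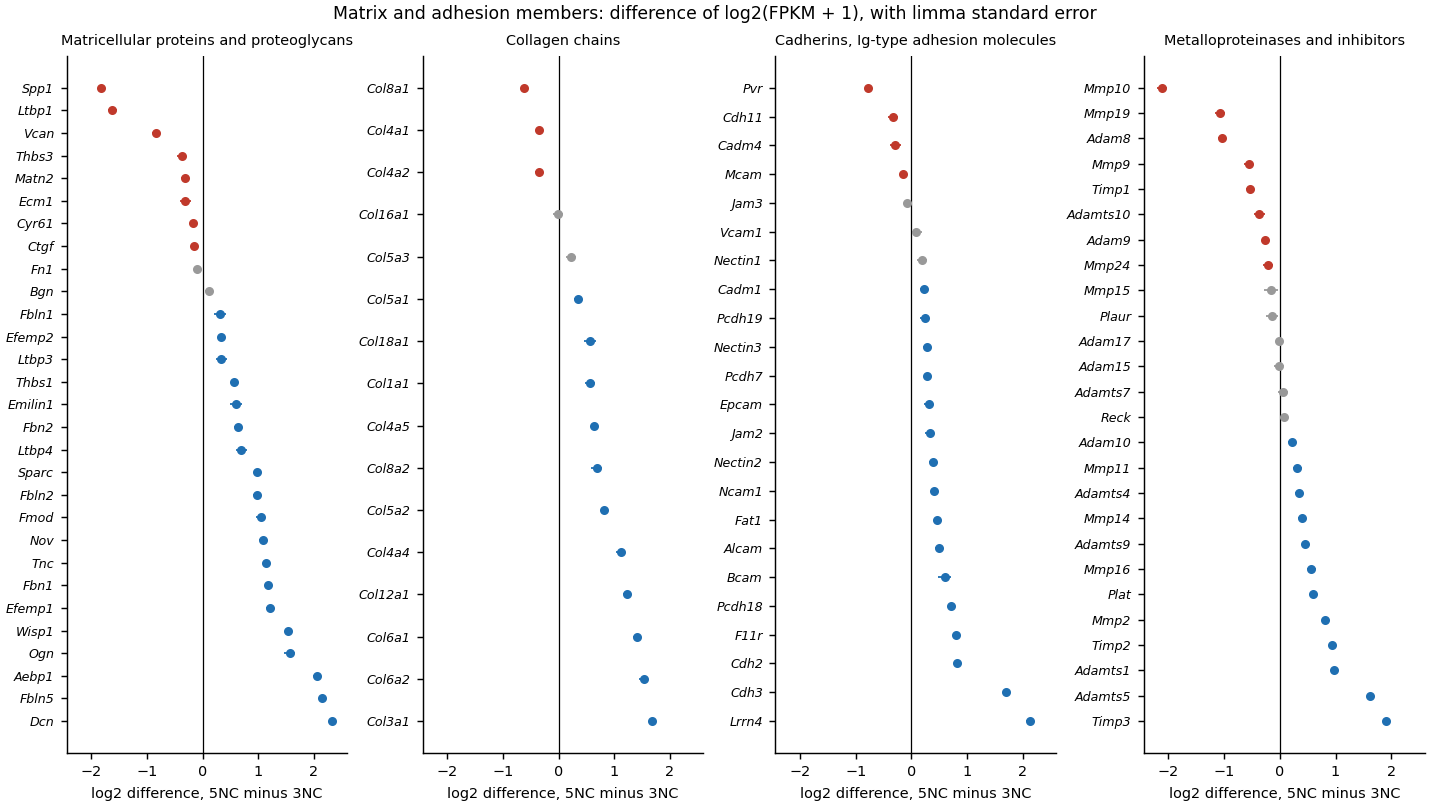
Difference of log2(FPKM + 1), 5NC minus 3NC, with limma standard errors, for tested members of 4 lists of matrix and adhesion genes. Blue points were called higher in 5NC, red points lower, and grey points were not called. Blue points outnumber red ones among matricellular proteins (19 to 8), collagens (11 to 3) and adhesion molecules (16 to 4), and the proteases are mixed.

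Among markers of other cell kinds, those of mesothelium and fibroblasts were more often higher than lower in 5NC. Those of peritubular myoid and Sertoli cells were not. The summed level of 15 markers of mesothelium and surface epithelium was 772 to 787 in 3NC and 1416 to 1434 in 5NC. Of 13 that passed the filter, 9 (69.2%) were higher and 1 lower (median 0.94), and the other 2 were below 1 in all 6 control libraries. Most of the difference in the sum was that of Upk3b: without it the sum was 537 to 545 in 3NC and 628 to 650.4 in 5NC. Cldn15, Lrrn4, Upk3b and Krt7 are in this list as well as in the surface and keratin lists. The summed level of 11 fibroblast markers was 329.5 to 342 in 3NC and 633 to 639 in 5NC, with 4 of 8 tested members higher and 1 lower. Decorin, Col1a1 and Col3a1 are in the fibroblast list as well as in the matrix lists. All 3 were called higher in 5NC and so raise both this sum and the count of higher members. Decorin alone had means of 21.6 in 3NC and 111.9 in 5NC. The sum was not taken without these genes, so it adds little to the matrix lists. Peritubular myoid markers were higher in 1 (Acta2, smooth muscle actin, 1.22) and lower in 3 of 5 cases (Des, -0.73, Cnn1, -0.64, and Ptch1, -0.27). Of 5 tested Sertoli cell markers, Clu (clusterin) was higher by 1.05 and Rhox5 lower by 1.02. The part of any other cell kind in the results was not tested.

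At the cell surface, the uroplakin Upk3b, a mesothelial marker (gene 100647, chromosome 5, 136038496 to 136044993), had levels of 242, 233 and 244 in 3NC and 782, 789 and 804 in 5NC (log2 difference 1.72, SE 0.0558, adjusted p = 3.13e-11). Lrrn4, a leucine-rich adhesion protein and also a mesothelial marker, had 1.32, 1.04 and 1.28 and 9.02, 8.82 and 8.04 (log2 difference 2.12, SE 0.0682, adjusted p = 3.05e-11). Upk3b was higher in every 5NC library than in any of 3NC. For Lrrn4 such a separation follows from its choice among the largest differences. Keratin 7 (Krt7), of simple epithelia, had 1.13, 0.55 and 0.63 and 3.72, 2.87 and 3.68 (log2 difference 1.33, SE 0.142, adjusted p = 3.47e-06), while the more abundant Krt19 was lower by 0.24. The tight junction gene Cldn15 had 0.84, 0.81 and 0.84 and 7.91, 8.17 and 7.67 (log2 difference 2.28, SE 0.101, adjusted p = 6.97e-10), and Cgn (cingulin), which sits on the inner side of such junctions, went from 20.6 ± 0.695 to 58.5 ± 1.57 (1.46). Of the 10 junction genes tested, 4 were higher and 4 lower, and 2 were lower without 3NC replicate 2 or 3, without 5NC replicate 1 or 3, without the low-value filter or with equal library sums. The connexins Gjb5 and Gja1 were among the lower ones (-0.82 and -0.27).

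Cadherins and immunoglobulin-type adhesion molecules were higher in 16 of 23 tested cases (69.6%) and lower in 4, with a median of 0.31. P-cadherin (Cdh3) had levels of 19.5, 19.2 and 19.9 in 3NC and 65.5, 66.3 and 65.5 in 5NC (log2 difference 1.70, SE 0.0573, adjusted p = 4.47e-11), and N-cadherin (Cdh2) 51.8, 52.2 and 50.98 and 90.98, 92.1 and 91.8 (log2 difference 0.81, SE 0.0426, adjusted p = 3.00e-09). Epcam, an epithelial and spermatogonial adhesion protein, was low and higher by 0.31. Pvr, the poliovirus receptor homologue, and Cdh11, the mesenchymal cadherin, were lower by 0.78 and 0.33. Integrins were lower in 4 and higher in 1 of 9 cases, and lower in 2 without 3NC replicate 2. Itgb1, the most widely shared beta subunit, was not called (0.10, adjusted p = 0.0925), but was called higher under 4 alternatives (adjusted p = 0.00925 to 0.0392). Itgb7, a beta subunit of leukocyte integrins, had 3.11, 2.69 and 2.47 and 0.63, 0.39 and 0.43 (log2 difference -1.34, SE 0.0955, adjusted p = 6.81e-08). Itga6, a surface marker of spermatogonial stem cells, was lower by 0.24 (adjusted p = 0.0327), and the call was lost without 3NC replicate 2 (-0.18, adjusted p = 0.143), 3NC replicate 3 (adjusted p = 0.0692), 5NC replicate 1 (adjusted p = 0.0995) or 5NC replicate 3 (adjusted p = 0.0765), without the low-value filter (adjusted p = 0.0530) and with equal library sums (adjusted p = 0.0787).

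Of 22 other surface antigens, 13 (59.1%) were higher and 5 lower. Mme, the membrane peptidase neprilysin, had levels of 3.88, 4.49 and 3.62 in 3NC and 16.6, 18.6 and 17.9 in 5NC (log2 difference 1.91, SE 0.0864, adjusted p = 8.62e-10). Cd200, an immunoregulatory ligand, was close to 0 in 3NC with 0.12, 0.21 and 0.09 and reached 1.77, 2.51 and 2.01 in 5NC (log2 difference 1.44, SE 0.0892, adjusted p = 1.68e-08). Ptprz1, a receptor phosphatase that carries chondroitin sulfate, had 3.56, 3.53 and 3.67 and 18.7, 19.4 and 19.6 (log2 difference 2.14, SE 0.0768, adjusted p = 8.16e-11). The hyaluronan receptor Cd44 was lower, with 50.7, 51.4 and 47.5 against 18.2, 19.1 and 17.8 (log2 difference -1.39, SE 0.0521, adjusted p = 1.16e-10), and Cemip, which degrades hyaluronan, was higher by 1.27. The receptor of hyaluronan and of osteopontin and the osteopontin gene Spp1 were thus both lower in 5NC. Tetraspanins were higher in 8 and lower in 2 of 18 cases, with 1 lower without 3NC replicate 1 or 5NC replicate 2. Cd81 went from 119 ± 0.49 to 195 ± 11.7 (0.70), and Cd9, a spermatogonial surface marker, from 102 ± 4.62 to 61.7 ± 3.57 (-0.72).

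Because both groups carried a virus, genes of the interferon response were read too. Of 45 tested, 16 (35.6%) were higher and 11 (24.4%) lower, near the background shares. Ifit1, an antiviral effector, had low levels of 1.61, 1.29 and 1.31 in 3NC and 4.12, 3.79 and 4.1 in 5NC (log2 difference 1.06, SE 0.0846, adjusted p = 2.16e-07). The RNA sensor Ddx58 (RIG-I) and Tmem173 (STING) were lower by 0.37 and 0.41. Chemokines and cytokines were lower in 8 and higher in 3 of 17 cases. Cxcl1, a neutrophil chemokine, had 50.1, 50.7 and 51.5 and 25.6, 27.1 and 26.7 (log2 difference -0.91, SE 0.081, adjusted p = 5.71e-07), Il6 was lower by 0.85, and Cxcl10 and Ccl7 were higher by 0.54 and 0.57. Genes of the actin cytoskeleton had 7 higher and 9 lower members of 27, with a median of 0.00 and Zyx (zyxin, of focal adhesions) at 0.75.

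The other 6 libraries of the series share none with this comparison and were used to see how the same genes stand there. Between 8276OV and 8276KD, 7744 genes were called (68.2% of those tested), 29.9% higher and 38.3% lower in 8276OV. Of the 301 genes that differed by more than 1 between the control viruses, 253 were called there, 238 with 8276OV differing from 8276KD in the direction in which 5NC differed from 3NC, and 15 in the other. After GC correction, with 280 of the 301 genes left to test, these numbers were 247, 238 and 9. Over all 6414 genes called between the controls, 4428 were called, 2913 in the same and 1515 in the other direction. For all 11360 genes tested, the background, 7744 were called, 4624 in the same and 3120 in the other direction. For the 301 genes the mean of 8276KD lay between the 2 control means in 262 cases and was nearer to 3NC in 185. The mean of 8276OV lay between them in 178 cases and beyond that of 5NC in 116, and was nearer to 5NC in 243. The genes were chosen for their distance between the controls, which favours values between them in any other group. The root mean square difference of group means over all genes was 0.40 between 3NC and 5NC, 0.27 between 3NC and 8276KD, and 0.45 between 5NC and 8276OV. It was 0.35 between 5NC and 8276KD, 0.42 between 8276KD and 8276OV, and 0.52 between 3NC and 8276OV. The 2 control groups were thus farther from each other than 8276KD was from 3NC. Over all genes, 5NC was also nearer to 8276KD than to 8276OV. These distances were taken without GC correction. The slope of the log2 level on transcript GC content, per 10 percentage points, was -0.46, -0.24 and -0.35 in the 8276OV libraries. It was 0.10 to 0.20 in the control libraries and -0.04 to 0.18 in 8276KD. How much of the distances to 8276OV comes from this trend was not tested.

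Some genes with large control differences show the order seen for most of the genes chosen above. Fosl1 had means of 30.97 in 3NC, 8.37 in 8276KD, 1.72 in 5NC and 1.56 in 8276OV. Bnip3 had 114, 49.2, 21.3 and 18.9, and Cdkn1a 71.03, 45.7, 21.02 and 16.5 in that order. In each of these genes 8276OV lay close to 5NC, and 8276KD lay between the controls. Other genes kept to a different order. Spp1 was high in 3NC alone, at 181 against 50.04 in 8276KD, 50.4 in 5NC and 69.1 in 8276OV, and Ltbp1 likewise (4.12, 0.61, 0.667 and 0.733). Aebp1 was high in 5NC alone (5.03, 4.72, 23.97 and 2.78), as was Cdk4 (157, 164, 275 and 164). In the NRF2 list, 3 members were called higher and 18 lower in 8276OV than in 8276KD. Gsta1 of this list had the opposite sign there: 8276OV exceeded 8276KD by 2.07, while 5NC was below 3NC by 1.71.

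**Figure D5:**
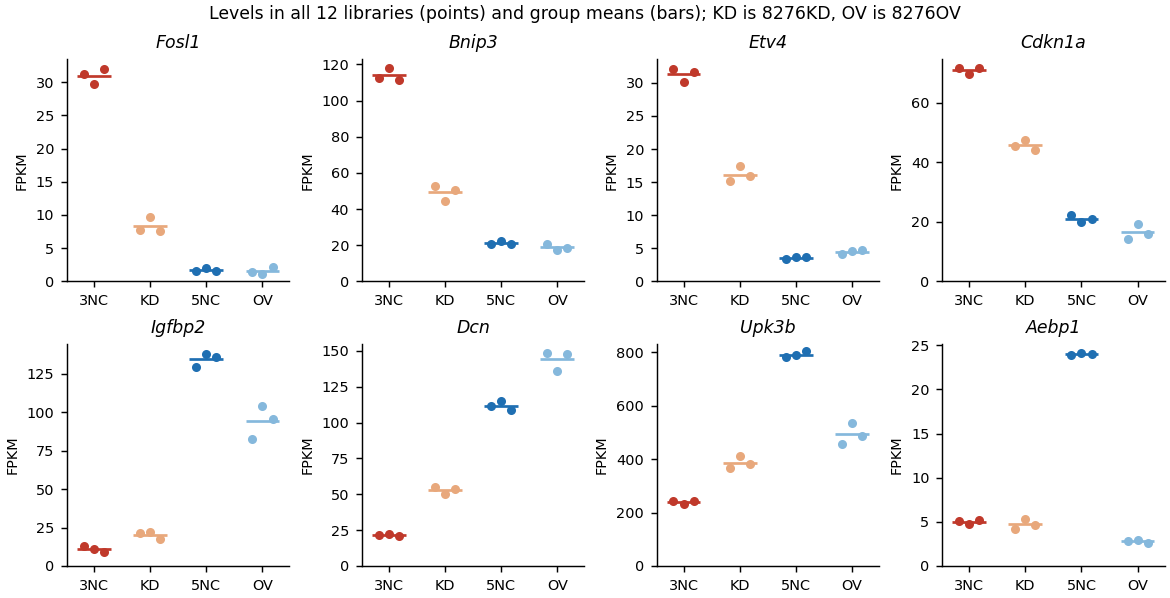
FPKM of 8 genes in all 12 libraries, 1 point per library and a bar at each group mean, in the order 3NC, 8276KD, 5NC and 8276OV. For Fosl1, Bnip3, Etv4 and Cdkn1a the 3NC points are highest and the 5NC and 8276OV points lowest, Igfbp2, Dcn and Upk3b show the reverse, and Aebp1 is high in 5NC only.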

How the data were processed

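Total RNA of C18-4 cells was sequenced in 12 libraries, 3 per treatment label, and 5NC was compared with 3NC. The table the authors deposited holds 17576 genes and was read as FPKM from its values, since no header names a unit. Per the submitters' processing notes, reads were handled on mm10. Not given in the sources used here: the aligner, the quantifier and strand handling. FPKM were not scaled further. Genes at 1 or more in at least 3 of 12 libraries were kept (11360), and log2(FPKM + 1), with a pseudocount of 1, was fitted with limma 3.58.1 in R 4.3.3: 4 group means over all 12 libraries, eBayes with trend and robust, two-sided p-values, Benjamini-Hochberg over all genes, threshold 0.05. No count test was run, since FPKM are no counts. Errors of levels are SDs of 3 libraries and errors of differences limma standard errors.

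Named genes are the 12 largest differences each way among called genes whose groups do not overlap, up to 3 called members each way of each list, and genes of a fixed list; Hmgcs1 is named by the promoter rule, and other list members only where a paragraph says so. Some genes that these rules name are not reported here or drawn in the figures; counts of list members include them. The members and lists were chosen with earlier results of these data known. Symbols and positions follow RefSeq (GRCm38), with 33 date-like symbols restored from gene identifiers. Correction for GC content removed a natural spline of 5 degrees of freedom per library. On simulated data for 5NC against 3NC (11360 genes, 50 per size), the fit recovered 34% of differences of 0.25, 86% of 0.5 and 100% of 1 and 2, with 3 false calls. Far fewer genes were changed there than the 6414 called in the data. The Benjamini-Hochberg cut-off depends on that share, so these rates do not carry over to the comparison. Alternatives were other pseudocounts, filters, scalings, fits and the omission of each library.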

Additional observations from a re-analysis of the deposited data

How the results depend on the processing

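Of 4180 values of 222 genes taken by the naming rule under the alternatives, 4115 kept their direction and side of the threshold, and 58 lost and 6 gained a call. P4hb changed sign with quantile normalization (0.017, adjusted p = 0.705). The cause was not tested. The total of 6414 called genes was 7223 after GC correction, 7513 with the 6 control libraries alone, 6688 without a low-value filter, and 5592 to 5703 without 1 control replicate, with 3078 to 3112 genes higher and 2512 to 2593 lower. Genes higher and lower by more than 1 numbered 307 and 213 with a pseudocount of 0.1, and 67 and 54 with a pseudocount of 5, where low genes count for more and less by construction. Without 1 replicate they numbered 170 to 188 and 125 to 129. The comparison of 8276OV with 8276KD, whose omissions were chosen after seeing the data, gave 6992 to 7853. The share of higher genes among those called was 54.2%, and 62.3% with equal library sums and 48.4% after GC correction. Of 703 list medians, 600 moved by less than the spread and 22 had the other sign. Of these, 17 belong to medians smaller than the spread between replicates: actin genes under 8 alternatives (-0.0016 to -0.055, from 0.0029), tight and gap junctions under 6 (-0.002 to -0.018, from 0.025) and lipid droplets under 3 (-0.014 to -0.021, from 0.031). The other 5 were G1 regulators with equal library sums (0.017, from -0.025), metalloproteinases with GC correction, with or without the block (-0.0081, from 0.065), and integrins (0.014, from -0.069) and keratins (-0.15, from 0.18) with a filter of 5. Same-numbered libraries of the 2 groups correlated at 0.041, 0.088 and 0.046 in their deviations from the group means, each above the other pairs (at most 0.0083), but the labels do not say that a number marks a shared culture, so the libraries were not taken as pairs. With the replicate block 6380 genes were called, and 7163 with the block and GC correction. Some counts of list members also moved by more than 1.5 times. Lower genes of DNA replication numbered 11 with quantile normalization or median-of-ratios factors and 12 with the 6 control libraries alone, higher NRF2 targets 3 with quantile normalization, higher mitotic genes 8 with the 6 control libraries alone, and higher integrins 2 with those, with equal library sums or after GC correction. With a filter of 5, fewer members are tested by construction: among others, lower chemokines numbered 2 and higher interferon genes 8. Depth limits genes near the filter.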

Other observations

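A few genes of guidance cues, which steer axons and migrating cells, were on no list and are given here as single genes; they were chosen because of their values, and the other guidance cues were not counted. Slit2 and Slit3, ligands of the Robo receptors, had levels of 6.25, 6.36 and 6.49 and 16.2, 16.9 and 16.4 in 3NC against 20.1, 20.8 and 20.99 and 47.5, 44.8 and 45.9 in 5NC (1.55 and 1.43 on the log2 scale, adjusted p = 8.87e-10 and 2.15e-09). The semaphorins Sema3a and Sema3d, ligands of neuropilins, had 13.7, 12.6 and 12.8 and 11.9, 12.1 and 11.8 in 3NC against 43.8, 45.98 and 44.7 and 36.9, 39.2 and 37.05 in 5NC (1.71 and 1.58). Flrt3, a membrane ligand of latrophilins and Unc5 receptors and among the 12 largest differences, had 4.38, 4.41 and 4.5 and 23.3, 26.1 and 24.96 (2.25). No library of 3NC reached the level of a 5NC library for any of these 5 genes, but their choice by value favours this. The same held for 37.6% of all genes tested. In 8276OV against 8276KD, which share no library with the controls, the differences were 1.11, 0.63, 1.85, 0.995 and 2.37 in the same order.

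Further genes with large differences, also chosen after their values were seen, lie outside the described lists. Tmsb4x, which binds actin monomers and is among the abundant transcripts of many cells, had levels of 379, 366 and 382 in 3NC and 1047, 1040.3 and 1084 in 5NC (log2 difference 1.49, SE 0.0362, adjusted p = 5.71e-12). Tes (testin), a focal adhesion protein, had 150.2, 145 and 145 and 49.8, 48.03 and 46.2 (log2 difference -1.59, SE 0.0429, adjusted p = 7.35e-12). Sulf1, a sulfatase that edits heparan sulfate outside the cell, had 7.45, 7.09 and 7.25 and 29.8, 30.8 and 28.9 (log2 difference 1.90, SE 0.0505, adjusted p = 7.35e-12), and Gas6, the ligand of the TAM receptors, 29.8, 28.6 and 30.8 and 81.6, 77.5 and 79.5 (log2 difference 1.39, SE 0.0718, adjusted p = 2.66e-09). Pgf, placental growth factor, had 4.97, 4.93 and 4.87 and 1.1, 0.71 and 0.77 (log2 difference -1.68, SE 0.169, adjusted p = 1.98e-06), while its relative Vegfa was not called. Nos2, the inducible nitric oxide synthase, was listed at 1.89, 1.76 and 1.48 in 3NC and 0.04, 0.09 and 0.08 in 5NC. Piwil2, a PIWI protein of the germ line, had 1.4, 1.57 and 1.26 and 5.4, 5.67 and 5.09 (log2 difference 1.41, SE 0.0865, adjusted p = 1.52e-08), against means of 3.01 in 8276KD and 2.84 in 8276OV.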
